A study of Mus musculus with 12 samples.

Results

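This account describes 47 genes of mouse chromosome 16, the counterparts of genes on human chromosome 21 that lie around Rcan1, in RNA from cells isolated from the mouse meninges. They were taken as a fixed list of symbols, without Rcan1, App and Clic6. All 47 were found among the 23238 symbols of the deposited tables, and the reference annotation places all 47 on chromosome 16. Of these, 43 had enough signal to be tested, and the other 4 (Chaf1b, Sim2, Rwdd2b and Sh3bgr) are given by their values.

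The study isolated meningeal lymphatic endothelial cells with MACS, a magnetic bead selection, from 3 to 4 mice of each strain and sequenced 4 libraries for each of 3 groups titled SJL_B6, AD_B6 and AD_TG. Every library carries the same labels for strain (C57BL/6), tissue (meninges) and age (20 weeks), and was made with the Lexogen QuantSeq kit from 500 ng of RNA. The series title names DSCR1, another name of Rcan1, and Alzheimer's disease, but the labels do not spell out SJL, AD, B6 or TG, name an allele or a promoter, or say which mice a library came from. AD_B6 and SJL_B6 differ in the first part of their titles, AD_TG and AD_B6 in the second, and AD_TG and SJL_B6 in both. Where a strain had 3 mice, its 4 libraries cannot all be separate animals, and p-values then measure only the spread between libraries, which may be partly technical.

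Down syndrome is caused by an extra copy of human chromosome 21, and a large block of that chromosome is conserved in the same order on mouse chromosome 16, with smaller blocks on mouse chromosomes 17 and 10. Mice with an additional copy of the chromosome 16 block are the classical models of the condition. The block holds a cluster of cytokine receptor genes, several transcription factors, the kinase gene Dyrk1a, endocytic scaffold genes, the superoxide dismutase gene Sod1, and App, which encodes the precursor of amyloid beta. Rcan1 encodes an inhibitor of the phosphatase calcineurin.

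The deposited values are log2 of a scaled read number plus 1, so a listed 0 means that no read was assigned, and 1 unit is a 2-fold difference where the value is well above 0. The smallest steps between low values put 1 read at a scaled value of 0.698 to 1.755 depending on the library, and the libraries at 4012558 to 9315043 reads. A gene was counted as having reads where its scaled value was at least 0.3, and smaller values are written here as "below 1 read". The number of genes with reads (mean ± SD, n = 4) was lowest in AD_B6, at 10288.8 ± 1125, with 8748 in its replicate 3, and was 11430.5 ± 584 in SJL_B6 and 11536.5 ± 409 in AD_TG. Among the 10 listed markers of the labelled cell type, Prox1, the defining transcription factor of lymphatic endothelium, had reads in 2 of 12 libraries. Reln had reads in 4, Flt4 in 6, Ccl21a and Itga9 in 9 and Lyve1 in 11. Pdpn, Nr2f2, Nrp2 and Foxc2 had reads in all 12. All 7 macrophage markers had reads in all 12 libraries. The 10 lymphatic endothelial markers together made up 0.0433 to 0.0764% of a library's total and the 7 macrophage markers 0.122 to 0.382%. The 6 fibroblast markers made up 0.110 to 0.873% and the 6 choroid plexus markers 0.229 to 8.58%. Ttr, a choroid plexus marker, stood at 13.4 in SJL_B6 replicate 2 and at 19.2 in AD_B6 replicate 4. In such bulk RNA, fewer cells of a type and less RNA per cell cannot be told apart.

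Promoter sequences are shown for the 4 tested members with the smallest unadjusted p between AD_TG and AD_B6 (Tiam1, Itsn1, Paxbp1 and Ets2), and for Ifnar1, chosen after the search because its window held more than 1 match to the site of ETS factors, a family that includes the members Ets2 and Gabpa. Each line gives the 250 bases before an annotated start from RefSeq on GRCm38.p6, in the direction of transcription. Capitals mark matches on either strand to CCGGAAG (ETS), TGTGGT (RUNX), TGGAAA (NFAT) or TGACNNNGC (the core of an antioxidant response element, which BACH1 can bind).
Tiam1, chr16:89818353-89818602, minus strand: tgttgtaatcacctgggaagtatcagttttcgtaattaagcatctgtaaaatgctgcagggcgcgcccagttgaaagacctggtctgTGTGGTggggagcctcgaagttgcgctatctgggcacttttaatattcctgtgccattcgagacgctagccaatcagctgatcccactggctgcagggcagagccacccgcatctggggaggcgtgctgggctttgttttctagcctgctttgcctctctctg
Tiam1, chr16:89974700-89974949, minus strand: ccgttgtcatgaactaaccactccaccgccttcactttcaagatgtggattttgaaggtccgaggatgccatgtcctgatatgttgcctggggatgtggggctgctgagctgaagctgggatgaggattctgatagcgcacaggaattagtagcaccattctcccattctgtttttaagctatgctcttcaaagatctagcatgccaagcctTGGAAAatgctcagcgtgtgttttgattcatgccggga
Itsn1, chr16:91729121-91729370, plus strand: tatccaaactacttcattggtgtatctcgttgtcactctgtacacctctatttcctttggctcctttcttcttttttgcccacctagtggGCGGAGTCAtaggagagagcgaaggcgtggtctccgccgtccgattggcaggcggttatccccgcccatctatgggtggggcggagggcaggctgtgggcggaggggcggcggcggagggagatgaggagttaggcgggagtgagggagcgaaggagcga
Paxbp1, chr16:91044380-91044629, minus strand: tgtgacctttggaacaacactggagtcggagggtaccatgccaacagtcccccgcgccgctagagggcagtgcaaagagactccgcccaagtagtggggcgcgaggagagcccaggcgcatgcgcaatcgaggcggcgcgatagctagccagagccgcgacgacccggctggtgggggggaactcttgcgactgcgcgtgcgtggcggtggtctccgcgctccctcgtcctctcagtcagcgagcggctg
Ets2, chr16:95702157-95702406, plus strand: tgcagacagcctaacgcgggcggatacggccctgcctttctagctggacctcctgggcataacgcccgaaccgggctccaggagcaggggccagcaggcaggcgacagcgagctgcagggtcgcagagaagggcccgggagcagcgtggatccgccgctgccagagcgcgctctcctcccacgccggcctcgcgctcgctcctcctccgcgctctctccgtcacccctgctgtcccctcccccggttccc
Ifnar1, chr16:91484965-91485214, plus strand: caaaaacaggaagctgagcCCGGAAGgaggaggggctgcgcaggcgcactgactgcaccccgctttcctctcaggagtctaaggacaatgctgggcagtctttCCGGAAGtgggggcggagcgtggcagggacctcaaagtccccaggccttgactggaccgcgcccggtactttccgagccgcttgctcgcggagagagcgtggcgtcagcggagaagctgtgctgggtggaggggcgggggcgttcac
The 4 leading members had no motif in common in these windows. Tiam1 had 1 RUNX match in its first window and 1 NFAT match in its second, Itsn1 had 1 antioxidant element match, and Paxbp1 and Ets2 had none of the 4 motifs. The Ifnar1 window had 2 ETS matches. RefSeq promoters were matched for 39 members, with 50 windows. The ETS motif was in 12% of the member windows and in 6.91% of all 32851 windows, the RUNX motif in 2% and 14%, the NFAT motif in 16% and 18.6%, and the antioxidant element in 12% and 10.2%. The ETS matches were in windows of Chaf1b, Donson, Gabpa, Hlcs, Ifnar1 and Usp16. These matches are letters in a window, and no binding was measured.

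Detection of the members was uneven. Reads were present in all 12 libraries for 21 of the 47 members (44.7%), against 21.3% of all 23238 symbols. All 21 were among the 43 tested members (48.8%), against 41.3% of the 11955 genes tested. A further 23 members had reads in 4 to 11 libraries and 3 in fewer (Chaf1b and Sim2 in 1, Sh3bgr in 3). The number of members with reads was 40, 38, 39 and 39 in the SJL_B6 libraries, 35, 36, 34 and 34 in AD_B6, and 39, 40, 39 and 39 in AD_TG. AD_B6 lay below both other groups with no overlap. Other genes were also missing more often in AD_B6: 68.4 to 85.6% of all genes tested had reads there, against 83 to 88.1% in SJL_B6 and 84.3 to 89.9% in AD_TG. For the 43 tested members the share was 76.7 to 81.4% in AD_B6, 86 to 88.4% in SJL_B6 and 90.7 to 93% in AD_TG. In AD_B6 replicate 3, which had the fewest genes, the share of members with reads (76.7%) was above that of all genes tested (68.4%).

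**Figure D1:**
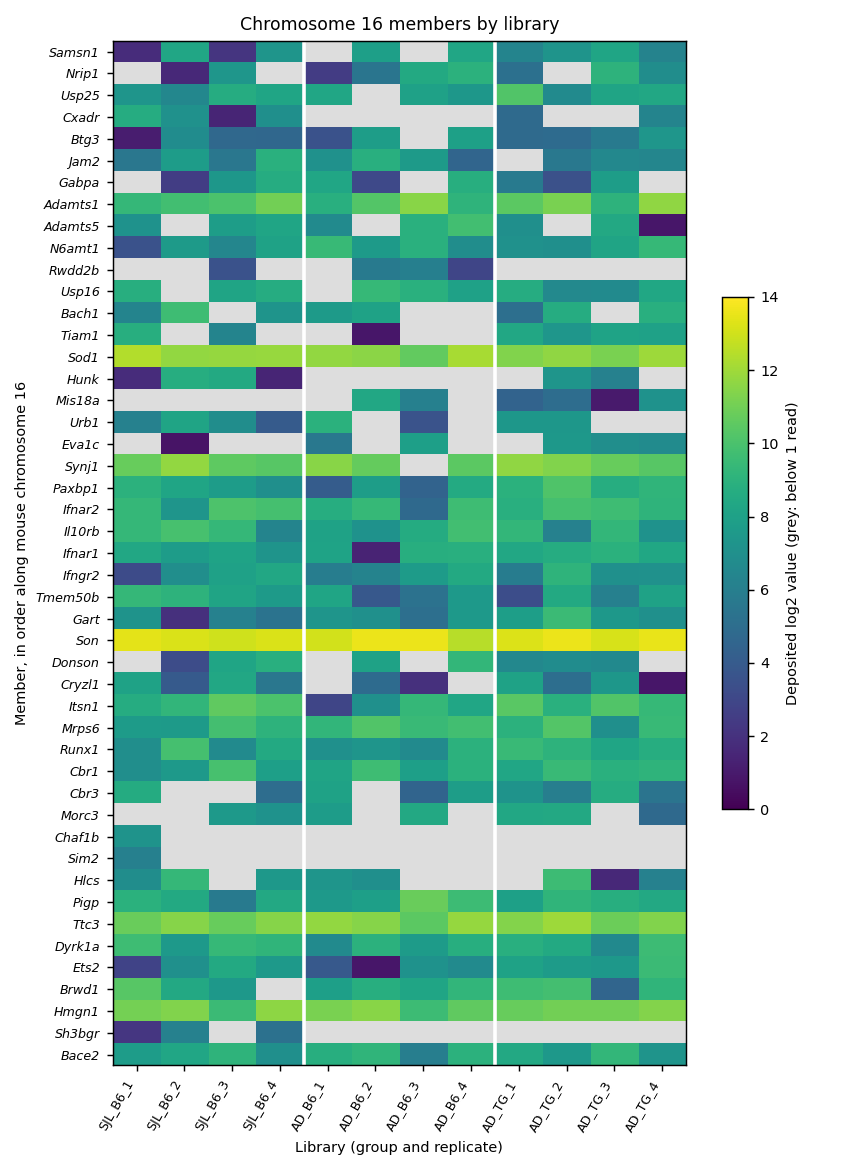
Deposited log2 values of the 47 members (rows, in chromosome order) in the 12 libraries (columns, 4 per group), with grey where the value was below 1 read. Rows such as Son, Sod1, Ttc3 and Hmgn1 are filled in every library, whereas Tiam1, Cxadr and Hunk are grey or close to 0 in all 4 AD_B6 libraries.

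The mean log2 value over all 47 members was 6.37, 6.22, 6.60 and 6.61 in SJL_B6 (6.45 ± 0.19, SD, n = 4), 5.78, 5.85, 5.60 and 6.33 in AD_B6 (5.89 ± 0.31), and 6.75, 7.10, 6.59 and 6.70 in AD_TG (6.79 ± 0.22). AD_TG lay above AD_B6 without overlap, while AD_B6 replicate 4 stood inside the SJL_B6 range. The mean over all genes tested moved with it, at 6.61 ± 0.15 in SJL_B6, 6.14 ± 0.51 in AD_B6 and 6.77 ± 0.20 in AD_TG. Once that mean was subtracted in each library, the members stood at -0.16 ± 0.18, -0.25 ± 0.49 and 0.01 ± 0.38, and all 3 groups overlapped. The members together made up 0.396 to 0.536% of each library's total.

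**Figure D2:**
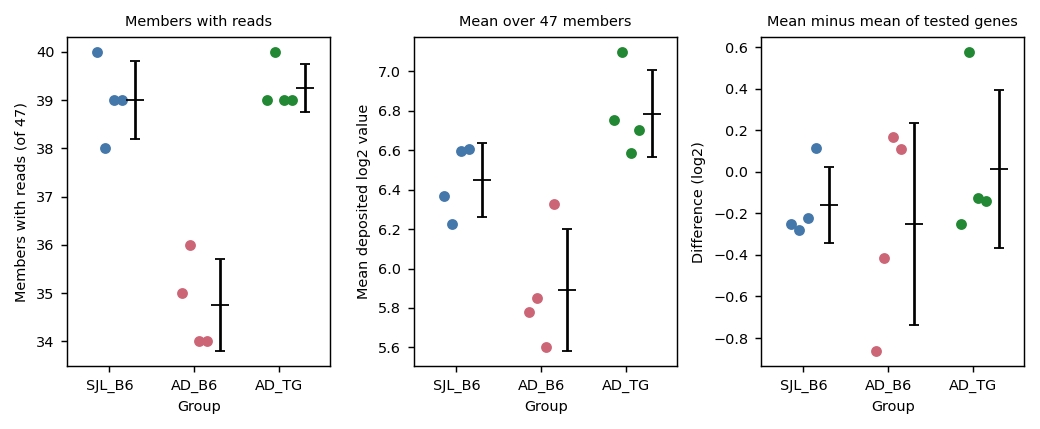
Members with reads (left), mean log2 value over the 47 members (middle) and that mean minus the mean over all genes tested (right) for each library, with black bars for the group mean ± SD (n = 4). AD_B6 has 34 to 36 members with reads against 38 to 40 elsewhere, and the groups overlap in the right panel.

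No gene passed limma's test at an adjusted p below 0.05 in any of the 3 comparisons, so 0% of the 11955 genes, and none of the members, were called. The lowest adjusted p of a member was 0.869 for AD_B6 against SJL_B6, 0.871 for AD_TG against AD_B6 and 0.999 for AD_TG against SJL_B6. At an unadjusted p below 0.05, limma had 3 members lower (4.05% of all genes tested) and 0 higher (1.36%) in AD_B6 than in SJL_B6, 3 higher (4.34%) and 0 lower (1%) in AD_TG than in AD_B6, and 1 higher (1.84%) and 0 lower (1.15%) in AD_TG than in SJL_B6. The groups did not overlap for 2 members lower (1.75%) and 0 higher (0.912%) in AD_B6 than in SJL_B6, for 3 higher (1.86%) and 0 lower (0.928%) in AD_TG than in AD_B6, and for 1 higher (1.38%) and 0 lower (1.07%) in AD_TG than in SJL_B6. The exact permutation p values printed with limma's have 0.0286 as the smallest value that 4 libraries against 4 allow, and belong to members picked for a small limma p. Without the trend in the prior spread, limma called 10, 10 and 2 genes in these comparisons, and no member was among them.

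From SJL_B6 to AD_B6, 19 of 43 members had a difference above 0 (40.2% of all genes tested) and 24 were lower, with a median log2 difference of -0.16 against -0.31 over all genes. From AD_B6 to AD_TG, 33 members were higher (62.8%) and 10 lower, with a median of 0.77 against 0.41. From SJL_B6 to AD_TG, 29 were higher (53.3%) and 14 lower, with a median of 0.36 against 0.08. These comparisons share their groups, and the splits moved with the scaling, as did those of all genes. With each library centred on its mean over the genes tested, the difference of every gene in a comparison shifts by the same amount. AD_TG against AD_B6 then gave 24 members higher (44.4% of all genes tested) and 19 lower, with a median of 0.14 against -0.22 over all genes. AD_B6 against SJL_B6 gave 24 higher (54.8%) and 19 lower when centred, with a median of 0.31 against 0.16. Quantile normalization gave 26 higher (52.7%) and 17 lower for AD_TG against AD_B6, with a median of 0.29 against 0.08. Without AD_B6 replicate 3, the library with the fewest genes, that split was 27 (56.5%) to 16 and the median 0.33 against 0.22.

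**Figure D3:**
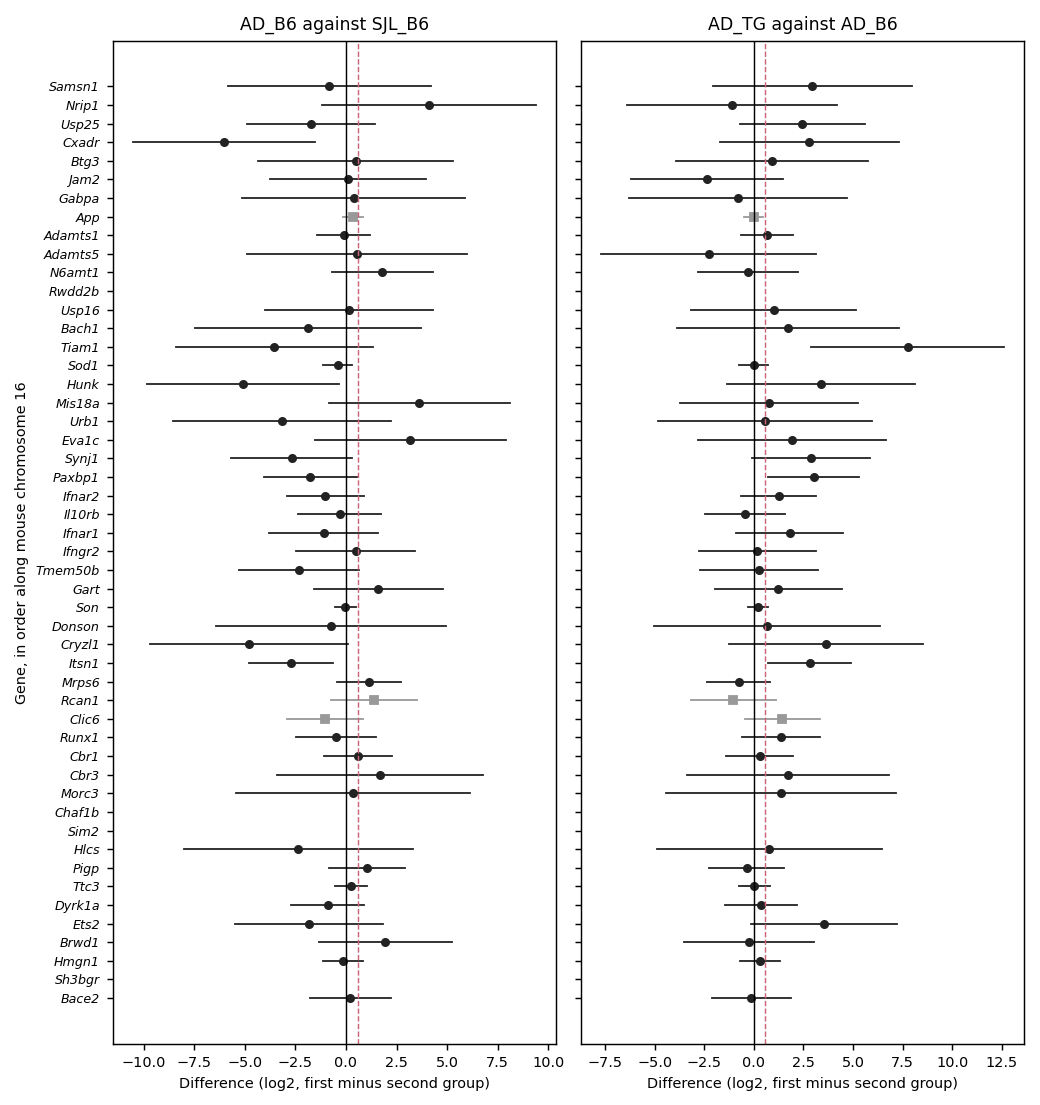
Log2 difference with its 95% interval for each tested member, in chromosome order, for AD_B6 minus SJL_B6 (left) and AD_TG minus AD_B6 (right). Grey squares are App, Rcan1 and Clic6, the dashed line is a 1.5-fold rise, and rows without a point were not tested. Tiam1, Itsn1 and Paxbp1 are the members whose interval lies above 0 on the right, and Cxadr, Itsn1 and Hunk those whose interval lies below 0 on the left.

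The 6 members that encode kinases, endocytic proteins and signalling adaptors had the widest swing of the role groups. All 6 were lower in AD_B6 than in SJL_B6 (median log2 difference -2.69), where 40.2% of all genes tested were higher. All 6 were higher in AD_TG than in AD_B6 (median 2.91), where 62.8% of all genes were higher. Both rest on the same AD_B6 libraries, so they are not independent. AD_TG and SJL_B6 differed by a median of 0.15 (4 higher, 2 lower). With libraries centred, the split from AD_B6 to AD_TG was 5 to 1, and without AD_B6 replicate 3 only 4 of 6 were lower in AD_B6 than in SJL_B6. None of the 6 passed the adjusted test.

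Tiam1 encodes an exchange factor that activates the small GTPase Rac. Its values were 8.77, 0, 6.32 and 0 in SJL_B6. In AD_B6 it was listed at 0.87 in replicate 2, an estimate of 1 read, and was below 1 read in the other 3 libraries. In AD_TG it stood at 8.39, 7.37, 8.12 and 7.99, estimated at 190, 212, 269 and 309 reads. All AD_TG libraries were above all AD_B6 libraries, as for 1.86% of all genes tested, whereas SJL_B6 was split between 2 libraries with reads and 2 without. The difference of AD_TG from AD_B6 was 7.74 (SE 2.36, limma p = 0.0032, adjusted p = 0.871, exact permutation p = 0.0286), a size that depends on the added 1 because AD_B6 is near 0. AD_TG against SJL_B6 gave 4.19 (SE 2.36, limma p = 0.0884, adjusted p = 0.999, exact permutation p = 0.143).

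Itsn1 encodes intersectin, a scaffold that links clathrin endocytosis to actin signalling. In SJL_B6 it stood at 8.65, 9.21, 10.58 and 10.01, in AD_B6 at 2.92, 7.05, 9.35 and 8.30, and in AD_TG at 10.42, 8.87, 10.18 and 9.37. AD_B6 replicate 1 (an estimated 7 reads) was the lowest, and AD_B6 replicate 3 overlapped both other groups. The difference of AD_B6 from SJL_B6 was -2.71 (SE 1.01, limma p = 0.0131, adjusted p = 0.869, exact permutation p = 0.0857), and that of AD_TG from AD_B6 was 2.81 (SE 1.01, limma p = 0.0104, adjusted p = 0.871, exact permutation p = 0.0571). Since both rest on the same AD_B6 libraries, they are not independent, and AD_TG and SJL_B6 differed by 0.10 (95% interval -1.99 to 2.19). Leaving out each library in turn gave -3.52 to -1.38 for the first difference and 1.48 to 3.62 for the second, with the values nearest to 0 when AD_B6 replicate 1 was left out.

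Synj1, which encodes the phosphoinositide phosphatase synaptojanin that uncoats clathrin vesicles, stood at 10.37 to 11.72 in 11 libraries and at 0 in AD_B6 replicate 3. The other 3 AD_B6 libraries, at 10.47 to 11.49, lay among those of both other groups. With all 4 included, the differences were -2.68 (95% interval -5.66 to 0.31) in AD_B6 against SJL_B6 and 2.88 (-0.11 to 5.86) in AD_TG against AD_B6. Hunk encodes a kinase related to the AMP-activated kinase. It stood at 1.76, 8.70, 8.50 and 1.42 in SJL_B6, below 1 read in all 4 AD_B6 libraries, and in AD_TG at 7.32 and 6.13 in replicates 2 and 3 and below 1 read in the others. SJL_B6 and AD_B6 did not overlap, as for 1.75% of all genes tested in this direction, but replicates 1 and 4 of SJL_B6 held an estimated 2 reads each. The fitted difference was -5.09 (SE 2.30, limma p = 0.0364, adjusted p = 0.869, exact permutation p = 0.0286). With AD_B6 set at a floor of 3 reads per library, the log2 difference was -3.18, a bound that covers counting error only. At that floor the mean scaled value of SJL_B6 was 68.6-fold higher. That mean rests on SJL_B6 replicates 2 and 3, with an estimated 585 and 209 reads.

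Dyrk1a, whose kinase is among the most studied Down syndrome candidates, had reads in all 12 libraries. Its mean ± SD (n = 4) was 8.93 ± 0.95 in SJL_B6, 8.03 ± 1.08 in AD_B6 and 8.41 ± 1.25 in AD_TG, and the 3 groups overlapped. The difference of AD_TG from AD_B6 was 0.37 (95% interval -1.44 to 2.19). Samsn1, an adaptor gene of lymphocytes, was below 1 read in AD_B6 replicates 1 and 3 and stood at 6.25 to 8.21 in the 4 AD_TG libraries. Its 2 other AD_B6 libraries stood at 7.92, inside that range, and 8.31, above it.

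**Figure D4:**
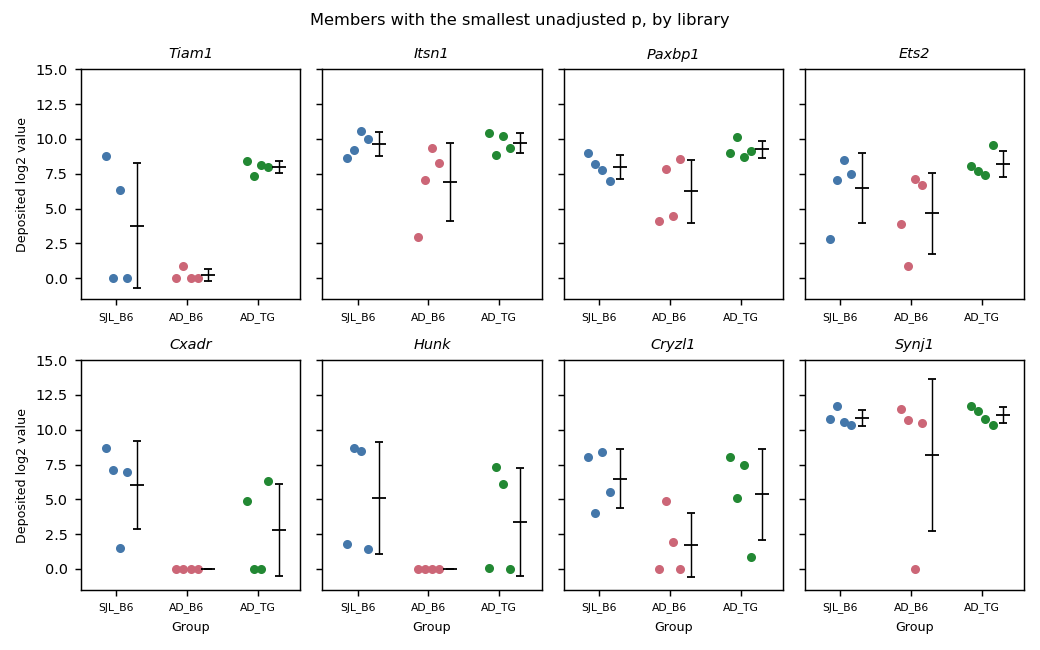
Deposited log2 values by library for 8 members, with the group mean ± SD (n = 4) in black. They include those with the smallest unadjusted p in AD_B6 against SJL_B6 and in AD_TG against AD_B6. Tiam1 is at 7.37 to 8.39 in AD_TG against at most 0.87 in AD_B6, and the Synj1 mean in AD_B6 is pulled down by 1 library at 0.

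The receptor genes Ifnar1 and Ifnar2, which encode the type I interferon receptor, Ifngr2, which encodes the signalling chain of the interferon gamma receptor, and Il10rb, which encodes the chain shared by the interleukin-10 receptor family, had reads in every library. In AD_TG against AD_B6, 3 were higher and 1 lower (median 0.72), and in AD_B6 against SJL_B6, 1 was higher and 3 lower (median -0.67). The first split was 2 and 2 when centred (median 0.08) or quantile normalized (0.22), and its median was 0.26 without AD_B6 replicate 3. The second was 2 and 2 without that replicate (-0.15) and when centred (-0.20). In SJL_B6, Ifnar1 stood at 8.38, 7.73, 8.13 and 7.26, in AD_B6 at 8.12, 1.41, 8.78 and 8.82, and in AD_TG at 8.39, 8.69, 8.93 and 8.34. AD_B6 replicate 2 was far below the rest. AD_B6 replicate 1 was also below all AD_TG libraries, and replicates 3 and 4 lay among them. The difference of AD_TG from AD_B6 was 1.81 (95% interval -0.89 to 4.50), and without that replicate it was 0.02. Ifnar2 had the same kind of spread, with AD_B6 replicate 3 at 4.79 and the other libraries at 7.32 to 10.09, and a difference of 1.26 (-0.64 to 3.15) that was 0.14 without that replicate. Ifngr2 and Il10rb differed by 0.17 (-2.77 to 3.12) and -0.44 (-2.48 to 1.59), with overlap between all groups. From the list of 12 genes of interferon and interleukin-10 receptor signalling, 11 were tested, of which 9 were higher and 2 lower in AD_TG than in AD_B6 (median 1.14), or 6 and 5 when centred (0.51), and the median was 0.46 without AD_B6 replicate 3. The kinase genes Tyk2 and Jak2 had the smallest p values, with differences of 4.62 and 4.52 and an adjusted p of 0.871 for both in limma.

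Among the transcription factors and co-regulators, 3 of 5 tested members were higher in AD_TG than in AD_B6 (median 1.38) and 2 of 5 were higher in AD_B6 than in SJL_B6 (median -0.50). These counts were the same when centred, quantile normalized or without AD_B6 replicate 3, with medians of 0.75, 0.45 and 0.42 for the first and -0.03, -0.12 and -0.22 for the second. Ets2 encodes an ETS factor downstream of Ras signalling. In SJL_B6 its values were 2.80, 7.04, 8.50 and 7.51, in AD_B6 3.91, 0.87, 7.14 and 6.71, and in AD_TG 8.08, 7.67, 7.44 and 9.56. All AD_TG libraries were above all AD_B6 libraries and overlapped SJL_B6. The difference was 3.53 (SE 1.77, limma p = 0.0579, adjusted p = 0.871, exact permutation p = 0.0286). Runx1, a factor of blood cell formation, stood at 7.99 ± 1.48, 7.50 ± 1.04 and 8.88 ± 0.55 in SJL_B6, AD_B6 and AD_TG (SD, n = 4), and differed by 1.38 (95% interval -0.58 to 3.35) between AD_TG and AD_B6. Gabpa (the DNA-binding subunit of GABP), Bach1 (a heme-regulated repressor of antioxidant genes) and Nrip1 (a corepressor of nuclear receptors) were missing from 3, 4 and 3 libraries. Each had values from below 1 read to above 8 within at least 1 group. Sim2, a factor of midline and neural development, had reads only in SJL_B6 replicate 1, at 6.12. Of 8 partner genes of RUNX, ETS and GABP factors, 7 were higher and 1 lower in AD_TG than in AD_B6 (median 0.71), or 4 and 4 when centred (0.08). The smallest p were those of Gabpb2 (3.49) and Ets1 (4.43), with an adjusted p of 0.871 for both in limma.

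The RNA and ribosome members were Son, Paxbp1, Mrps6 and Urb1, of which 3 were higher and 1 lower in AD_TG than in AD_B6 (median 0.38), but 1 and 3 when centred (-0.25) and 2 and 2 when quantile normalized (-0.17). Paxbp1 encodes a partner of the PAX3 and PAX7 factors. Its values were 8.99, 8.21, 7.75 and 6.97 in SJL_B6 libraries, 4.08, 7.82, 4.46 and 8.55 in those of AD_B6 and 8.97, 10.17, 8.71 and 9.15 in those of AD_TG. AD_TG lay above AD_B6 without overlap, and AD_B6 replicates 1 and 3 were the lowest of the 12. The difference was 3.02 (SE 1.11, limma p = 0.0121, adjusted p = 0.871, exact permutation p = 0.0286), and 2.31 to 3.79 with 1 library left out at a time. Son, a splicing cofactor gene, had the narrowest interval of the members: it stood at 13.21 ± 0.18, 13.18 ± 0.50 and 13.38 ± 0.22 in SJL_B6, AD_B6 and AD_TG (SD, n = 4). The difference of AD_TG from AD_B6 was 0.20 (95% interval -0.31 to 0.71). Mrps6, a mitochondrial ribosomal protein gene, differed by -0.76 (-2.34 to 0.81). Urb1, a ribosome assembly gene, was below 1 read in 2 AD_B6 libraries and 2 AD_TG libraries and stood at 4.02 to 8.19 in SJL_B6.

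Among the chromatin and replication members, 4 of 6 tested were higher in AD_B6 than in SJL_B6 (median 1.08, or 0.96 with Mis18a at its bound) and 4 of 6 higher in AD_TG than in AD_B6 (median 0.49). The latter was 2 of 6 with 10 in place of 1 added before the logarithm (median -0.09), after quantile normalization (-0.27) and without AD_B6 replicate 3 (-0.06), and 3 of 6 when centred (-0.14), so it has no stable direction. Mis18a, which helps to load the centromere histone, was below 1 read in all 4 SJL_B6 libraries, stood at 8.40 and 6.12 in AD_B6 replicates 2 and 3 (the other pair had none), and had 4.46, 5.001, 1.02 and 7.14 in AD_TG. AD_TG and SJL_B6 did not overlap, as for 1.38% of all genes tested in this direction, but AD_TG replicate 3 held an estimated 1 read. The fitted difference was 4.39 (SE 2.17, limma p = 0.0544, adjusted p = 0.999, exact permutation p = 0.0286), and 2.34 with SJL_B6 at a floor of 3 reads per library. The mean scaled value of AD_TG, which its highest libraries weigh most, was 14.4-fold above that floor. Hmgn1, a nucleosome-binding protein gene with near-identical copies elsewhere in the genome, stood at 10.88 ± 0.93, 10.72 ± 0.85 and 11.04 ± 0.29 (SD, n = 4) and differed by 0.32 (95% interval -0.67 to 1.32) between AD_TG and AD_B6. N6amt1, a methyltransferase subunit gene, differed by -0.31 (-2.81 to 2.20). Brwd1, a bromodomain protein gene, was below 1 read in SJL_B6 replicate 4 and at 4.56 to 10.39 in the other 11 libraries. Donson, a replication fork gene that overlaps Son, and Morc3, a chromatin ATPase gene, were missing from 4 and 5 libraries spread over all 3 groups. Chaf1b, a histone chaperone gene of dividing cells, had reads only in SJL_B6 replicate 1, at 7.21.

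The metabolic and redox members divided into steady and sparse genes. Sod1, which encodes the cytosolic superoxide dismutase, had values of 12.37, 11.76, 11.79 and 11.83 in SJL_B6 libraries, 11.75, 11.54, 10.63 and 12.17 in those of AD_B6, and 11.33, 11.67, 11.17 and 11.93 in those of AD_TG. The groups overlapped, and AD_TG and AD_B6 differed by 0.00 (95% interval -0.73 to 0.73). With libraries centred, that difference was -0.63. Gart, a trifunctional enzyme gene of purine synthesis, stood at 7.20, 1.93, 6.16 and 5.32 in SJL_B6 and at 7.87, 9.56, 7.48 and 7.02 in AD_TG, with SJL_B6 replicate 1 inside the AD_TG range. That difference was 2.83 (SE 1.55, limma p = 0.0799, adjusted p = 0.999, exact permutation p = 0.0571). Cbr1, a carbonyl reductase gene, and Pigp, a gene of GPI anchor synthesis, differed between AD_TG and AD_B6 by 0.28 (-1.40 to 1.97) and -0.36 (-2.25 to 1.52). Cbr3, the neighbouring paralog of Cbr1, was below 1 read in 3 libraries (SJL_B6 replicates 2 and 3 and AD_B6 replicate 2). Cbr1 held an estimated 263, 556 and 959 reads there, so its reads were not counted for Cbr3 in these libraries. Whether reads of Cbr3 were counted for Cbr1 was not tested. Cryzl1, a quinone oxidoreductase-like gene, stood at 8.06, 3.99, 8.39 and 5.55 in SJL_B6, at 4.88 and 1.92 in AD_B6 replicates 2 and 3 and below 1 read in the other 2. The groups overlapped through AD_B6 replicate 2. The difference was -4.79 (SE 2.37, limma p = 0.0548, adjusted p = 0.869, exact permutation p = 0.0571). Hlcs, the biotin ligase gene, was below 1 read in 4 libraries. In AD_TG against AD_B6, 6 of the 7 members were higher (median 0.78), or 4 of 7 when centred (0.15), with medians of 0.26 after quantile normalization and 0.25 without AD_B6 replicate 3. Of 12 genes of redox defence 7 were higher (median 0.10), but 4 when centred (-0.53), and of 5 genes of purine synthesis 4 were higher (0.47), but 2 when centred (-0.16). Prdx2 (1.41) and Ccs, the copper chaperone gene of SOD1 (-2.94), had the smallest p among the redox genes, and Adsl (4.72) and Paics (0.47) among the purine genes, all with an adjusted p of 0.871 in limma.

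**Figure D5:**
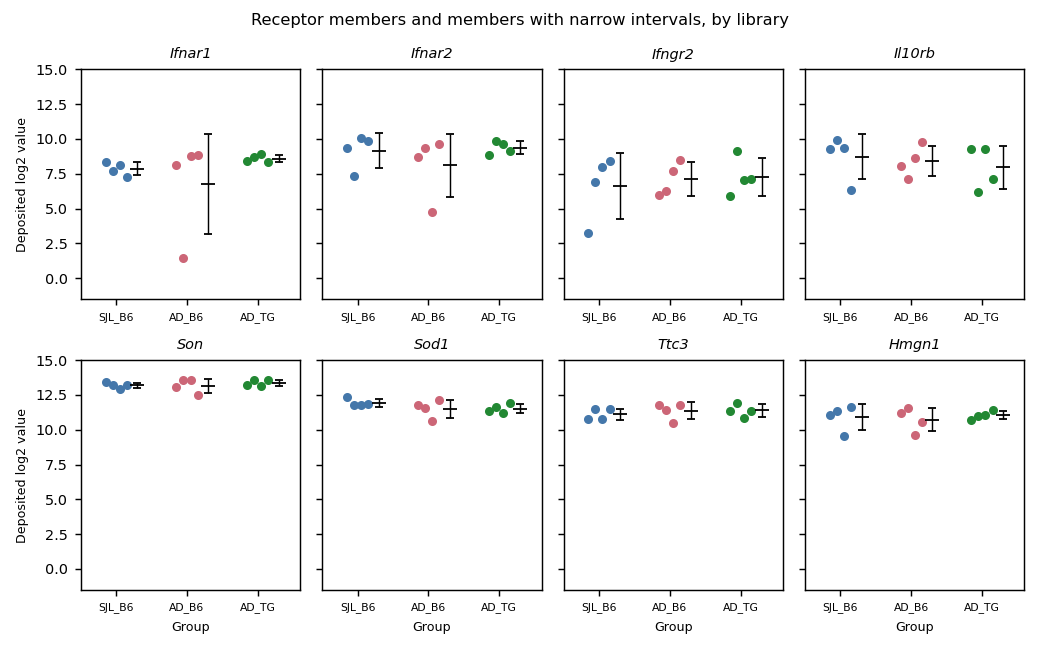
Deposited log2 values by library for the 4 cytokine receptor members (top) and the 4 members with the narrowest intervals (bottom), with the group mean ± SD (n = 4) in black. All 3 groups overlap for each of these genes, and single low libraries widen the AD_B6 spread of Ifnar1 and Ifnar2.

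The 3 ubiquitin members were all higher in AD_TG than in AD_B6 (median 0.99), or 2 of 3 when centred (0.36) or without AD_B6 replicate 3 (1.77), and their intervals all included 0. Ttc3, a ubiquitin ligase gene that overlaps Pigp, stood at 11.12 ± 0.40, 11.36 ± 0.60 and 11.38 ± 0.45 in SJL_B6, AD_B6 and AD_TG (SD, n = 4). AD_TG and AD_B6 differed by 0.02 (95% interval -0.77 to 0.82), and by -0.61 with libraries centred. The deubiquitinase genes Usp16 and Usp25 each had single libraries below 1 read among otherwise similar values. Usp16 lacked reads in SJL_B6 replicate 2 and AD_B6 replicate 1 and Usp25 in AD_B6 replicate 2, while the remaining libraries held 6.57 to 9.39 and 6.47 to 10.19.

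The members that encode junction, matrix and membrane proteins showed no shared direction, with 4 of 7 higher in AD_B6 than in SJL_B6 (median 0.10), 4 of 7 higher in AD_TG than in AD_B6 (median 0.26), and 3 of 7 higher in AD_TG than in SJL_B6 (median -1.73). The count for AD_TG against AD_B6 was 3 of 7 when centred (-0.37), quantile normalized (-0.48) or without AD_B6 replicate 3 (-0.06), and that for AD_B6 against SJL_B6 was 2 of 7 without that replicate (-0.31). Cxadr encodes a junctional adhesion protein that serves as a viral receptor. It stood at 8.67, 7.11, 1.47 and 6.97 in SJL_B6, below 1 read in all 4 AD_B6 libraries, and in AD_TG at 4.86 and 6.34 in replicates 1 and 4 and at 0 in the others. SJL_B6 and AD_B6 did not overlap, although SJL_B6 replicate 3 held an estimated 1 read. The difference was -6.05 (SE 2.18, limma p = 0.0105, adjusted p = 0.869, exact permutation p = 0.0286), and -4.14 with AD_B6 at a floor of 3 reads per library. The mean scaled value of SJL_B6, which its highest libraries weigh most, was 58.9-fold above that floor. Cxadr overlaps Btg3, an antiproliferative gene that stood at 3.50, 7.78 and 7.95 in 3 AD_B6 libraries, and the strand used in counting is not given in the sources used here.

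Eva1c, a heparin-binding membrane protein gene, held 1 estimated read in SJL_B6 replicate 2 and none in the other 3. It stood at 5.61 and 7.90 in AD_B6 replicates 1 and 3 and at 7.45, 6.94 and 6.74 in AD_TG replicates 2 to 4, and was below 1 read in AD_TG replicate 1. AD_TG and SJL_B6 overlapped through that replicate, and differed by 5.09 (SE 2.29, limma p = 0.0356, adjusted p = 0.999, exact permutation p = 0.0571). Bace2 encodes a protease that cleaves the amyloid precursor within its amyloid beta stretch. It stood at 8.02 ± 0.89, 8.24 ± 1.50 and 8.11 ± 0.95 in SJL_B6, AD_B6 and AD_TG (SD, n = 4), and AD_TG and AD_B6 differed by -0.13 (95% interval -2.12 to 1.86). The secreted protease gene Adamts1 differed by 0.65 (-0.65 to 1.95) and the membrane protein gene Tmem50b by 0.26 (-2.70 to 3.22). Its relative Adamts5 and the junction gene Jam2 had SDs of 3.89 to 4.42 and 1.65 to 3.09 within groups, and both fitted differences of AD_TG from AD_B6 were below 0, at -2.28 and -2.35 with intervals that included 0. Sh3bgr had reads in 3 SJL_B6 libraries, at 2.19, 6.13 and 5.23, and in no other. Rwdd2b had reads in SJL_B6 replicate 3 (3.50) and AD_B6 replicates 2 to 4 (5.77, 6.07 and 2.92), and in no AD_TG library.

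The precision of these differences depended on detection. The median half-width of the 95% interval was 1.97 for the 21 members with reads in all 12 libraries and 4.89 for the other 22 tested. In AD_TG against AD_B6, the 21 well-detected members had a median difference of 0.28 (16 higher, 5 lower), and the other 22 a median of 1.18 (17 higher, 5 lower). For 11 of the 21 (Bace2, Dyrk1a, Hmgn1, Ifngr2, Il10rb, N6amt1, Pigp, Sod1, Son, Tmem50b and Ttc3), the sign of that difference changed when 1 or another single library was left out. For 8 (Cbr1, Dyrk1a, Hmgn1, Ifngr2, Sod1, Son, Tmem50b and Ttc3), it changed when libraries were centred. Centring takes the same amount from every gene's difference here, so any small difference above 0 must turn. The count of 8 therefore does not measure how stable these members are. Leaving out a library gave -0.54 to 1.32 for Tmem50b, -0.88 to 0.19 for Bace2 and -0.08 to 0.95 for Dyrk1a. Where RNA follows gene dose, 1 extra copy of a gene gives a 1.5-fold rise (0.58 on the log2 scale), but no label names such a copy. An interval that ended below that rise was found for 8 members in AD_B6 against SJL_B6, 0 in AD_TG against AD_B6 and 1 in AD_TG against SJL_B6. For the remaining tested members the interval reached a 1.5-fold rise or more. These counts are on the deposited scale, and the share of all genes tested with such an interval was not computed. The mean over all genes tested was 6.14 in AD_B6 and 6.61 in SJL_B6, so centring moves every difference between these groups up. The count of 8 is therefore not a result about the members.

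Along the chromosome, the 19 tested members from Tiam1 to Mrps6 had 5 higher and 14 lower in AD_B6 than in SJL_B6 (median -1.03), where 40.2% of all genes tested were higher. They had 17 higher and 2 lower in AD_TG than in AD_B6 (median 1.22), where 62.8% of all genes were higher. Sod1 counts as higher there, at 0.00025. The 12 before them (Samsn1 to Bach1) had 7 higher and 5 lower in both comparisons, and the 12 after them (Runx1 to Bace2) had 7 and 5, then 9 and 3 (5 and 7 when centred). Without AD_B6 replicate 3, Samsn1 to Bach1 had 5 and 7, then 6 and 6. This division was made after the values had been seen, and neighbouring genes are not replicates. Under centring or quantile normalization the stretch from Tiam1 to Mrps6 had 12 higher and 7 lower in AD_TG than in AD_B6, where 44.4% and 52.7% of all genes were higher. Without AD_B6 replicate 3 it had 14 and 5 (56.5% of all genes higher). In AD_B6 against SJL_B6 it had 8 higher and 11 lower when centred (54.8%), and also without that replicate (46.8%).

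Outside the list, 3 genes of the same block were examined for comparison. Rcan1 stood at 7.40 ± 1.65, 8.79 ± 1.04 and 7.75 ± 1.16 in SJL_B6, AD_B6 and AD_TG (SD, n = 4), and AD_TG and AD_B6 differed by -1.04 (95% interval -3.18 to 1.10). Without the construct behind the TG label, this value does not check that label. App differed by -0.01 (-0.50 to 0.48) and Clic6, a chloride channel gene high in choroid plexus, by 1.44 (-0.44 to 3.31). Of other chromosome 16 counterparts, 47 of 54 symbols were found and 25 tested, of which 21 were higher and 4 lower in AD_TG than in AD_B6 (median 1.48), or 17 and 8 when centred (0.84). Tmprss2 (3.71) and Ltn1 (3.02) had the smallest p. The counterparts on chromosome 17 had 6 higher and 4 lower (median 0.02), but 2 and 8 when centred (-0.61), with the smallest p for Abcg1 (2.59) and Ndufv3 (-0.41). Those on chromosome 10 had 15 higher and 11 lower (median 0.20), but 6 and 20 when centred (-0.43), with the smallest p for Pofut2 (-3.09) and Sumo3 (-0.46). Among genes of clathrin endocytosis, the process of Itsn1 and Synj1, 9 of 12 were higher (median 0.24), but 3 of 12 when centred (-0.39), and the smallest p were those of Dnm2 (-1.11) and Cltb (1.66). Of all genes tested, 62.8% were higher in this comparison (median 0.41), and 44.4% when centred (-0.22). The numbers after gene names are log2 differences, and the lowest limma adjusted p of the genes named from these lists was 0.871.

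Counts of cell type markers with a difference above 0 varied between the marker lists. They are on the deposited scale, without centring, and no marker passed limma's test at an adjusted p below 0.05. In AD_B6 against SJL_B6, where 40.2% of all genes tested were higher, 1 of 9 tested lymphatic endothelial markers, 3 of 10 pan-endothelial, 1 of 7 macrophage, 1 of 5 mural, 0 of 6 fibroblast, 1 of 4 myelin and 1 of 3 erythroid markers were higher, as were 3 of 6 choroid plexus, 3 of 4 neuronal and 5 of 5 neutrophil markers. In AD_TG against AD_B6, where 62.8% of all genes were higher, the counts were 6 of 9, 6 of 10, 6 of 7, 4 of 5, 3 of 6, 3 of 4 and 0 of 3, then 5 of 6, 1 of 4 and 1 of 5, in the same order. Those of the lymphatic and pan-endothelial markers in this comparison are near the share of all genes. The fibroblast markers, of which 0 of 6 were higher in AD_B6 than in SJL_B6, had a median difference of -0.21 there. Over all genes tested that median was -0.31. The mean log2 value of the 10 lymphatic endothelial markers was 6.15 to 7.64 in SJL_B6, 4.63 to 5.42 in AD_B6 and 5.21 to 6.97 in AD_TG, that of the pan-endothelial markers 4.93 to 7.06, 2.24 to 6.29 and 5.19 to 6.87, and that of the macrophage markers 10.07 to 11.03, 9.12 to 10.60 and 9.99 to 10.64. The neutrophil markers ran from 2.98 to 9.51, 6.42 to 11.09 and 3.37 to 11.29. Prox1 was below 1 read in all 8 AD_B6 and AD_TG libraries. Their part in the members' differences was not tested.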

How the data were processed

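RNA from meningeal cells of 12 libraries was analysed. The deposited tables hold, per symbol, log2 of a scaled read number plus 1, as found from the values; the scaling is not given in the sources used here. The submitters' processing notes name Bowtie2, bedtools and hg19, a human build, although the organism is mouse, so no gene coordinates are given except those of the RefSeq promoters. Of 23282 entries per table, 44 were left out as repeats of 35 symbols.

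Groups follow the sample titles. The 11955 genes that reached a scaled value of 10 in 4 or more libraries entered limma (version 3.58.1, R 4.3.3; linear model, moderated with a trend on mean level, two-sided) as deposited log2 values. All 12 libraries shared 1 fit, and p was adjusted by Benjamini-Hochberg over those genes, with a threshold of 0.05. Intervals are 95% intervals of that fit. Known shifts added to shuffled values were recovered by the fit, which checks its arithmetic but not its error rate or power. Exact permutation tests of single members were added after seeing the data. Lists are described by counts and medians only. Between 90.6 and 100% of low values lay on whole reads (tolerance 0.15 of a read), so reads are estimates, and the count floor is 3 reads.

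All 47 members are named. The 4 tested members with the smallest unadjusted p per comparison are given with SE and p, members with reads in all 12 libraries with intervals, and the 2 genes of smallest p from each other list. The members and lists were chosen with earlier results of these data known. Alternatives were other pseudocounts, filters, scalings, no trend, a replicate block, only the groups compared, and each library left out.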

Additional observations from a re-analysis of the deposited data

Results flagged for a closer look

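The search covered 131 sets of 4 libraries (a member within a group) and, beyond these, sets of summary values within a group. Of all these sets, 22 had a highest or lowest library whose gap to the next was above Dixon's critical share of the whole range. Chance gives about 1 in 20 for normally distributed values. That share does not apply to 13 of the 22, which include libraries without reads, and in 5 of these the other 3 libraries had none, which fixes the share at its highest. Of the 22, 13 were low and 9 high. The low values with reads were Ifnar1 at 1.41 in AD_B6 replicate 2, Il10rb at 6.33 in SJL_B6 replicate 4, Brwd1 at 4.56 in AD_TG replicate 3, Pigp at 5.71 in SJL_B6 replicate 3 and Bace2 at 6.00 in AD_B6 replicate 3. The low values without reads, taken as 0, were those of Donson in AD_TG replicate 4, Synj1 in AD_B6 replicate 3, Usp16 in SJL_B6 replicate 2 and AD_B6 replicate 1, Usp25 in AD_B6 replicate 2, Jam2 and Eva1c in AD_TG replicate 1, and Adamts5 in SJL_B6 replicate 2. In each case the other 3 libraries of the group stood well above 0, for Synj1 at 10.47 to 11.49.

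The high values were Sod1 at 12.37, Chaf1b at 7.21 and Sim2 at 6.12, all in SJL_B6 replicate 1, Rwdd2b at 3.50 in SJL_B6 replicate 3, Tiam1 at 0.87 in AD_B6 replicate 2 and Eva1c at 0.75 in SJL_B6 replicate 2. The number of members with reads was 40 in AD_TG replicate 2 against 39 in the others of its group. The members' mean minus the mean of all genes tested was 0.58 in AD_TG replicate 2 and 0.11 in SJL_B6 replicate 4.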

How the results depend on the processing

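No difference of a member given with a p reversed or passed the threshold under any alternative run. The median difference of the tested members for AD_TG against AD_B6 (0.77) was 0.28 with only genes with reads in all 12 libraries. It was 0.36 with 10 added before the logarithm, 0.14 with libraries centred and 0.29 after quantile normalization. Over all genes, that median (0.41) was 0.10, 0.27, -0.22 and 0.08 in the same order. For AD_B6 against SJL_B6 the members' median was 0.31 when centred, and that of all genes 0.16. Leaving out 1 library at a time gave -0.66 to -0.021 for AD_B6 against SJL_B6 (-0.66 without SJL_B6 replicate 1, -0.60 without AD_B6 replicate 4), 0.33 to 1.16 for AD_TG against AD_B6 (0.33 without AD_B6 replicate 3, 0.45 without AD_TG replicate 2, 1.16 without AD_TG replicate 3) and 0.24 to 0.70 for AD_TG against SJL_B6 (0.70 without AD_TG replicate 4); the cause was not tested. The number of genes called, 0 in each comparison, was 10, 10 and 2 without trend and stayed at 0 with each library left out. The mean over members was 7.20, 6.89 and 7.45 in SJL_B6, AD_B6 and AD_TG with 10 added, 6.26 in SJL_B6 with 0.5 added, and -0.16, -0.25 and 0.015 after subtracting the library mean. Members with a scaled value of at least 10 numbered 35.5, 32.75 and 38.0. With the replicate number as a block, 0 genes were called and the median for AD_TG against AD_B6 was again 0.77. The numbers did not pair libraries: 0 of 12 same-numbered pairs had deviations correlated above 0.1 (mean 0.0137), and 4 of 12 libraries correlated best with their own number. Counts by list and stretch under alternatives were chosen after seeing the data.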
